A study of Mus musculus with 4 samples.

Results

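The 10 genes described here mark the arachnoid and the fibroblasts of the meninges. They are the tight junction gene Cldn11, the transporter genes Slc6a13 and Slc22a6, the prostaglandin synthase gene Ptgds, the proteoglycan genes Lum and Dcn, and the transcription factor genes Foxc1, Foxc2, Foxd1 and Osr1. They were taken by symbol, without the collagens, from 23328 genes listed in the 2 deposited count tables of a mouse cortex RNA-seq series, and all 10 are protein coding. RNA came from the dissected cerebral cortex of C57BL/6 embryos at embryonic day 16, from wild-type (WT) embryos and from embryos with a knockout (KO) of Cd93, the gene of an endothelial lectin-like receptor. The part of Cd93 deleted is not given in the sources used here, nor whether a library holds 1 embryo or a pool. Libraries WT 1, WT 4, KO 5 and KO 6 were deposited as 2 tables, of which table A pairs KO 6 and WT 1 and table B pairs KO 5 and WT 4. The design text mentions triplicates, while the libraries analysed here are 2 per genotype. The labels do not say that the libraries of a genotype came from separate animals, so p-values measure only the spread between these libraries, which may be technical.

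The meninges wrap the brain in 3 layers, the dura, the arachnoid and the pia. Arachnoid barrier cells are sealed by tight junctions and carry transporters that clear solutes from the cerebrospinal fluid, while meningeal fibroblasts lay down collagen and small leucine-rich proteoglycans. Foxc1 is required for the meninges to form, and signals from the meninges, retinoic acid among them, act on the cortex below.

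Total listed counts ran from 16318317 to 17586157 per library, and 1 count equalled 0.0563 to 0.0616 CPM, the count scaled to a common library total. The targeted gene Cd93 had WT counts of 680 (WT 1) and 409 (WT 4) and KO counts of 111 (KO 5) and 99 (KO 6), an order that follows the genotype labels. WT 1 stood apart from the other 3 libraries in the meningeal genes, so the comparison of genotypes below is given with and without it. The labelled tissue matched its markers, since the summed level of 10 cortical neuron and progenitor genes was 3257 to 3904 CPM.

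All 9 genes listed in both tables were highest in WT 1, where 27.7% of all genes listed in both tables were highest in that library. Their level was 5.57-fold to 143-fold higher in WT 1 than in WT 4, the other WT library. The summed level of the 10 genes was 154 CPM for WT 1, 13.6 for WT 4, 9.53 for KO 5 and 31.5 for KO 6, with Osr1 entered as 0 in the libraries of table B. The genotypes thus overlapped, with a KO library between the 2 WT libraries. In bulk RNA, fewer cells of a type and less RNA per cell cannot be told apart.

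**Figure D1:**
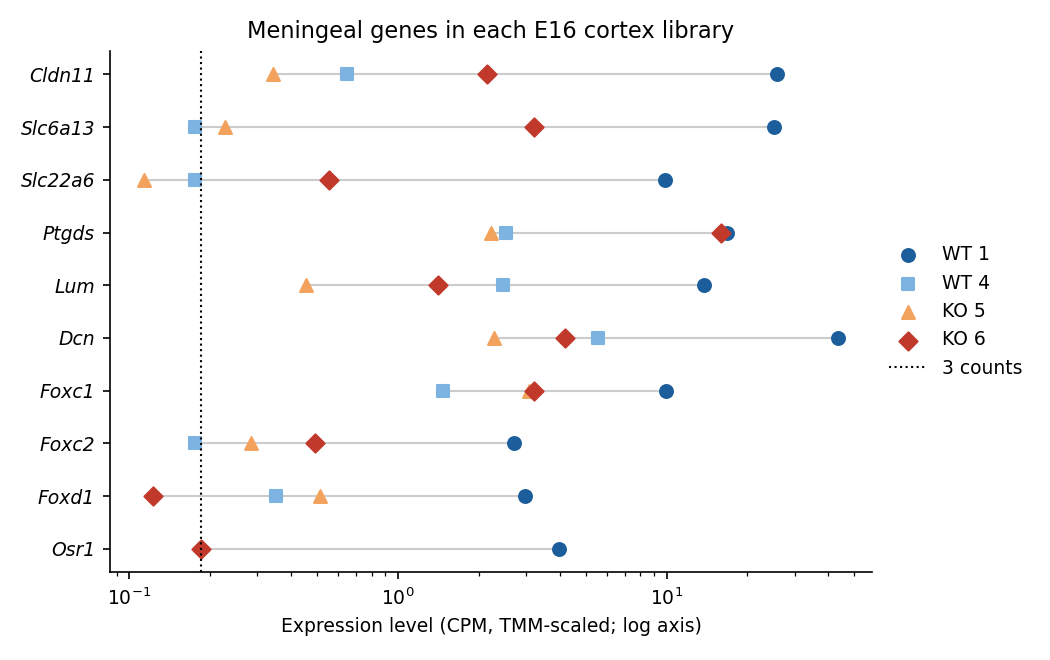
Level of each gene in the 4 libraries (CPM on a log axis, scaled by TMM), 1 symbol per library; the grey line joins the lowest and the highest, and the dotted line marks 3 counts. WT 1 lies at the right end in all 10 rows, and Osr1 has 2 points because table B does not list it.

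For 6 of the 10 genes RefSeq promoter sequence was at hand on GRCm38.p6, as 8 windows with 1 per start site. The 250 bases before the start are printed for Cldn11 and Slc22a6, 2 of the 3 genes with the largest ratio of WT 1 to WT 4, and for Foxc1, a meningeal regulator with a much smaller ratio. The windows are chr3:31149670-31149919, plus strand for Cldn11, chr19:8617746-8617995, plus strand for Slc22a6 and chr13:31806396-31806645, plus strand for Foxc1. Capitals mark CCAAT boxes (CCAAT, or ATTGG on the other strand) and GC boxes (GGGCGG, or CCGCCC).
Cldn11: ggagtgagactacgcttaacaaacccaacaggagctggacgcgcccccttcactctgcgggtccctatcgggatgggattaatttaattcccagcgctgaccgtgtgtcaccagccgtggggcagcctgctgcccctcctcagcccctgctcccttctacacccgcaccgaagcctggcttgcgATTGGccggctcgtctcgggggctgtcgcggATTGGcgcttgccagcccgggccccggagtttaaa
Slc22a6: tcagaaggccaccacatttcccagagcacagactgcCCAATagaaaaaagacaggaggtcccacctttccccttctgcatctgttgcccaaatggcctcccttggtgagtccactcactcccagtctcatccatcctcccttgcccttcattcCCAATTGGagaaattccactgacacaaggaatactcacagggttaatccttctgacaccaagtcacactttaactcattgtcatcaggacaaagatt
Foxc1: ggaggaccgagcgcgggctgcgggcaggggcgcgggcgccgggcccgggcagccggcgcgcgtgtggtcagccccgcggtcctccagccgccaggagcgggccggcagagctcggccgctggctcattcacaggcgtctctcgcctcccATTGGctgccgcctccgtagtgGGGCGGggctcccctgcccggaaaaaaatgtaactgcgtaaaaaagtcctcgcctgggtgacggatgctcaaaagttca
A CCAAT box was in 5 of the 8 windows and in 33.8% of 32851 mouse promoter windows of the same length, and a GC box in 3 of the 8 and in 32.7%. The Cldn11 window held 2 CCAAT boxes, the Slc22a6 window 3, of which 2 overlap as CCAATTGG, and the Foxc1 window 1 with 1 GC box. The forkhead core motif GTAAACA (or TGTTTAC) was in 0 of the 8 and in 3.17% of all windows, and the TATA box TATAAA (or TTTATA) in 0 of the 8 and in 12.4%. A match is a run of letters and not a measured site.

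Cldn11 encodes claudin-11, the strand-forming protein of tight junctions between arachnoid barrier cells and between the wraps of myelin. The gene (ENSMUSG00000037625, chromosome 3, 31149920 to 31164324, plus strand) was covered by 456 counts (WT 1), 11 (WT 4), 6 (KO 5) and 35 (KO 6). Its mean level (SD, n = 2 each) was 13.2 ± 17.7 CPM for WT against 1.25 ± 1.28 CPM for KO. The SD of WT exceeded its mean, and KO 6 was above WT 4. At equal depth WT 1 was 39.7-fold above WT 4 (95% counting interval 22.0 to 80.1) and 11.9-fold above KO 6, and KO 6 was 6.30-fold above KO 5 (2.62 to 18.3). Such intervals are exact, cover counting error only and compare libraries, not genotypes. Mbp, a myelin gene of the oligodendrocytes that also use Cldn11, was at 15.5 to 18.7 CPM in all 4 libraries. The 8 genes of the oligodendrocyte lineage list, none at 0, summed to 115 CPM in WT 1 and 76.5 to 86.9 CPM in the others.

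Slc6a13 encodes GAT2, a carrier of GABA and taurine in the leptomeninges. The gene (ENSMUSG00000030108, chromosome 6, 121300227 to 121337733, plus strand) was covered by 448 counts (WT 1), 3 (WT 4), 4 (KO 5) and 52 (KO 6). This was the widest range of the 9 genes, 143-fold from WT 1 to WT 4 (95% counting interval 48.6 to 696). Both libraries of table B were near 3 counts, the floor used here, and both libraries of table A were well above it. KO 6 was 18.2-fold above WT 4 (5.89 to 91.1) and KO 5 was 1.30 times WT 4 (0.219 to 8.85). Means (SD, n = 2 each) were 12.7 ± 17.7 CPM for WT against 1.72 ± 2.11 CPM for KO. Its relatives Slc6a6 (171 to 185 CPM), a taurine carrier, and Slc6a8 (73.8 to 77.2 CPM), a creatine carrier, spanned narrow ranges.

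Slc22a6 encodes OAT1, an exporter and importer of organic anions. The gene (ENSMUSG00000024650, chromosome 19, 8617996 to 8628299, plus strand) was covered by 176 counts (WT 1), 3 (WT 4), 2 (KO 5) and 9 (KO 6). WT 1 was 56.2-fold above WT 4 (95% counting interval 18.9 to 275) and 17.9-fold above KO 6. Among the 3 low libraries, KO 6 was 4.86 times KO 5, on 9 against 2 counts, with an interval that barely cleared equality (1.01 to 46.2). KO 6 did not differ from WT 4 beyond counting error (ratio 3.15, 0.786 to 18.1), nor KO 5 from WT 4 (0.648, 0.0541 to 5.66). Slc22a8, the gene of the related carrier OAT3, was at 13.6, 6.40, 7.65 and 9.86 CPM in WT 1, WT 4, KO 5 and KO 6. It too was highest in WT 1, over a far narrower range.

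Ptgds, the gene of lipocalin-type prostaglandin D synthase, is made in the leptomeninges, in the choroid plexus and by oligodendrocytes. It (ENSMUSG00000015090, chromosome 2, 25466709 to 25470046, minus strand) was covered by 297 counts (WT 1), 43 (WT 4), 39 (KO 5) and 259 (KO 6). The libraries split by deposited table rather than by genotype, both of table A being high and both of table B low. KO 6 was 0.955 times WT 1 (95% counting interval 0.805 to 1.13) and KO 5 was 0.881 times WT 4 (0.556 to 1.39), whereas WT 1 was 6.62-fold above WT 4 (4.79 to 9.34) and KO 6 7.17-fold above KO 5 (5.11 to 10.3). The genotype means (SD, n = 2 each) were 9.62 ± 10.03 CPM for WT against 9.10 ± 9.71 CPM for KO.

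The choroid plexus gene Ttr, which encodes transthyretin, was covered by 178 counts (WT 1), 8 (WT 4), 17 (KO 5) and 222 (KO 6), the same split by table as Ptgds. The 7 choroid plexus genes summed to 19.3 and 19.7 CPM in WT 1 and KO 6 and to 5.46 and 6.79 CPM in WT 4 and KO 5. Ttr alone held 13.7 CPM of the KO 6 sum and 0.470 CPM of the WT 4 sum. The split of the sum thus rested largely on this gene. Aqp1 was lower in KO 6 (1.36 CPM) than in WT 4 (1.59 CPM), against the split. Clic6 was higher in KO 6 (0.986 CPM) than in WT 4 (0.587 CPM), with it. Table B does not list Kl, one of the 7, and Otx2, at 2.06 to 3.48 CPM, was highest in KO 5. Their part in the Ptgds levels was not tested. The prostaglandin synthase genes Ptges3 (128 to 139 CPM), Hpgds (2.85 to 3.99 CPM) and Ptges (2.41 to 3.43 CPM) had the same order by table. Their ranges were far narrower than those of Ptgds and Ttr. Ptges2, at 22.1 to 25.7 CPM, was highest in KO 5, against that order. Of the receptor genes, Ptgdr and Ptgfr are listed in table A only.

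Lum and Dcn encode lumican and decorin, small leucine-rich proteoglycans that bind collagen fibrils, and lie 46984 bases apart on chromosome 10. Lum (ENSMUSG00000036446, 97565128 to 97572703, plus strand) was covered by 244 counts (WT 1), 42 (WT 4), 8 (KO 5) and 23 (KO 6). Dcn (ENSMUSG00000019929, 97479609 to 97518143, plus strand) was covered by 769 counts (WT 1), 95 (WT 4), 40 (KO 5) and 68 (KO 6). Both genes shared 1 order, WT 1, WT 4, KO 6, KO 5, and they were the 2 of 9 in which both KO libraries were below both WT libraries, where 13.0% of all genes listed in both tables had that order. Among the 6 that passed the filter on low counts these were 2, against 11.9% of tested genes.

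The mean of Lum (SD, n = 2 each) was 8.10 ± 7.96 CPM for WT against 0.937 ± 0.680 CPM for KO, and that of Dcn 24.4 ± 26.6 against 3.24 ± 1.35 CPM. For Lum, KO 6 was 0.103 times WT 1 (95% counting interval 0.0642 to 0.159) and KO 5 was 0.185 times WT 4 (0.0751 to 0.399). For Dcn these ratios were 0.0969 (0.0744 to 0.124) and 0.409 (0.275 to 0.598). Both genes were thus lower in the KO library of each table beyond counting error. Across tables the margin was small, since KO 6 was 0.575 times WT 4 for Lum (0.330 to 0.978) and 0.751 times for Dcn (0.542 to 1.04).

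Foxc1 and Foxc2 are paralogous forkhead genes of head mesenchyme. Foxc1 (ENSMUSG00000050295, chromosome 13, 31806633 to 31812476, plus strand) was covered by 177 counts (WT 1), 25 (WT 4), 54 (KO 5) and 52 (KO 6). It was 3.11-fold lower in KO 6 than in WT 1 but 2.10 times higher in KO 5 than in WT 4 (95% counting interval 1.28 to 3.52), so the tables went opposite ways. The KO libraries did not differ from each other beyond counting error (ratio 1.04, 0.697 to 1.55), and both lay between the WT libraries. Foxc2 (ENSMUSG00000046714, chromosome 8, 121116171 to 121118895, plus strand) had 48, 3, 5 and 8 counts in WT 1, WT 4, KO 5 and KO 6, again with WT 4 lowest. KO 5 was 1.62 times WT 4 for Foxc2 (0.315 to 10.4), not separable at this depth.

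Foxd1 is a forkhead gene of stromal and perivascular precursors and of the diencephalon. The gene (ENSMUSG00000078302, chromosome 13, 98354242 to 98359305, plus strand) was covered by 53 counts (WT 1), 6 (WT 4), 9 (KO 5) and 2 (KO 6). It was the one of the 9 that was not higher in KO 6 than in KO 5 (ratio 0.240, 95% counting interval 0.0252 to 1.16). Osr1, a zinc finger gene of mesenchymal precursors (ENSMUSG00000048387, chromosome 12, 9570116 to 9581500, plus strand), had 71 counts in WT 1 and 3 in KO 6, a ratio of 0.0463 (0.00932 to 0.141). Table B does not list Osr1, and the lowest sum over 2 libraries in that table was 2 counts.

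Per kilobase of exon, the levels could be ordered, for 10 genes in table A and for the 9 that table B lists, and the order differed between libraries. In WT 1 Cldn11 was the highest at 13.7 CPM per kb, followed by Ptgds at 10.1, Slc6a13 at 8.68, Dcn at 7.41 and Lum at 5.61 CPM per kb. The transcription factor genes Osr1, Foxc1, Foxc2 and Foxd1 were lowest, at 1.93, 1.70, 0.991 and 0.589 CPM per kb, with Slc22a6 just above them at 2.49. In KO 5 Ptgds led at 1.35 CPM per kb, followed by Foxc1 at 0.528, Dcn at 0.391, Lum at 0.187 and Cldn11 at 0.183 CPM per kb, and Slc6a13 was at 0.0786 CPM per kb. Slc22a6 was the lowest of the 9 there, at 0.0287 CPM per kb. Lum and Cldn11 rested on 8 and 6 counts in KO 5, so their order there is not separable, while Cldn11 and Slc6a13 stood above Dcn and Foxc1 in WT 1 and below both in KO 5.

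Comparing the genotypes with all 4 libraries, 0 of the 6 meningeal genes that passed the filter on low counts passed the test of edgeR's quasi-likelihood model at a Benjamini-Hochberg adjusted p of 0.05, against 0.0122% of 16371 genes called lower and 0.00% called higher. Slc22a6, Foxc2 and Foxd1 were under the filter and Osr1 was in 1 table only. DESeq2 and limma-voom also called 0 of the 6, against 0.0367% and 0.0122% of genes called lower. At an unadjusted edgeR p under 0.05 there were 2, Lum and Dcn, and 317 of all 16371 genes. The 6 log2 fold changes were all negative, with a median of -2.91, where 51.0% of all tested genes were negative and their median was -0.003.

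Lum had the smallest p of the 6, at -3.12 on the log2 scale (SE 0.89) with an adjusted p of 0.9999 in edgeR. Cldn11 had the most negative value, -3.41 (SE 1.48), followed by Dcn at -2.92 (SE 0.89) and Slc6a13 at -2.90 (SE 1.68). Foxc1, at -0.86 (SE 0.76), and Ptgds, at -0.09 (SE 1.01), were closer to 0. In the fit without a filter, Slc22a6 had -3.90 (SE 1.57), Foxd1 -2.34 (SE 1.06) and Foxc2 -1.87 (SE 1.09), each with an edgeR adjusted p of 0.9995.

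The direction changed with the WT library that entered. Without WT 1 the median of the 6 was 1.01, with Lum at -1.40 and Dcn at -0.79 still negative and Slc6a13 at 3.21, Ptgds at 1.84, Foxc1 at 1.09 and Cldn11 at 0.93 positive. In that fit edgeR called 0 of them, against 0.206% of 16967 genes called lower and 0.0530% called higher. Without WT 4 the median of 9 tested was -3.74, and edgeR called 8 of the 9 lower, every gene but Ptgds, against 1.52% of 17129 genes. WT then rested on WT 1 alone, which was assumed to vary as the KO libraries do. When the table entered the model as a block, 3 of the 6 passed in edgeR as lower, against 0.165% of 16371 genes: Lum at -2.97 (adjusted p 0.00819), Cldn11 at -3.04 and Dcn at -2.49 (adjusted p 0.0343 for both). That fit took the genotype difference to be the same in both tables. In table B, KO 5 was 0.530 times WT 4 for Cldn11 (95% counting interval 0.161 to 1.56), not separable at this depth. Slc6a13, at -2.60, missed the threshold in that edgeR fit (adjusted p 0.085). Genes of the ganglionic eminence, the source of cortical interneurons, moved with these calls. Of 9 such genes edgeR called 0 with all 4 libraries, against 0.0122% of genes called lower. With the table as a block it called 7 lower, against 0.165%. For 7 of the 9 the higher KO library stayed below the lower WT library, against 11.9% of 16371 tested genes. Their median log2 fold change was -1.84 with all libraries and -0.75 without WT 1. Their part in the meningeal calls was not tested.

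**Figure D2:**
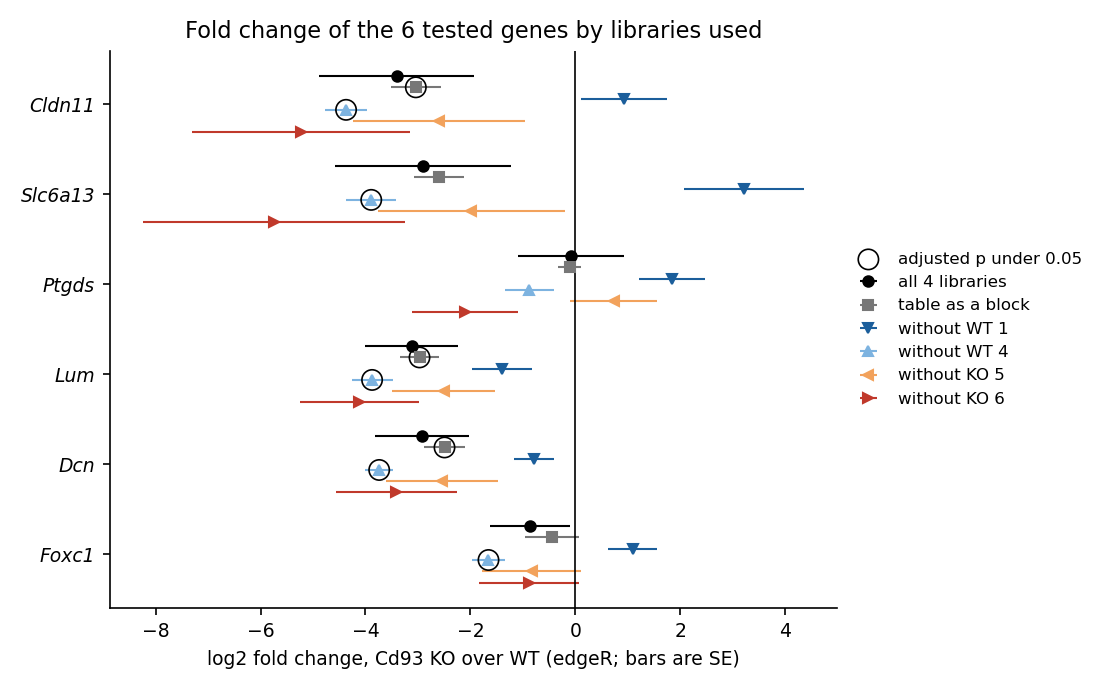
Log2 fold change of KO over WT for the 6 tested genes (horizontal axis, edgeR, bars are SE) with all 4 libraries, with the deposited table as a block and without each library in turn; rings mark an adjusted p under 0.05. Without WT 1, 4 of the 6 genes move to the right of 0, while Lum and Dcn stay to the left.

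Within the tables, all 9 genes were lower in KO 6 than in WT 1, and 5 were lower and 4 higher in KO 5 than in WT 4. The log2 ratios of CPM (prior count 2) in table A ran from -3.90 for Slc22a6 to -0.07 for Ptgds, with 7 of 9 genes at least 4-fold lower, against 0.937% of genes in both tables. In table B they ran from -2.17 for Lum to 1.01 for Foxc1, with 1 of 9, Lum, at least 4-fold lower, against 0.706%. Differences within a genotype were of similar size. Over the 6 tested genes the median log2 ratio of WT 1 to WT 4 was 2.80 and that of KO 6 to KO 5 was 1.86, beside -3.05 for KO 6 over WT 1 and -0.45 for KO 5 over WT 4. WT 1 was at least 4-fold above WT 4 in 9 of 9 genes, against 1.03%, and KO 6 at least 4-fold above KO 5 in 3 of 9, Cldn11, Slc6a13 and Ptgds, against 0.481%. The WT 1 to WT 4 log2 ratio ran from 2.42 for Lum to 6.43 for Slc6a13. For the pair KO 6 and WT 4, which crosses the tables, 3 of 9 were lower in KO 6 (Foxd1, Lum and Dcn) and 6 higher. The pairs share libraries, so their values are not independent.

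**Figure D3:**
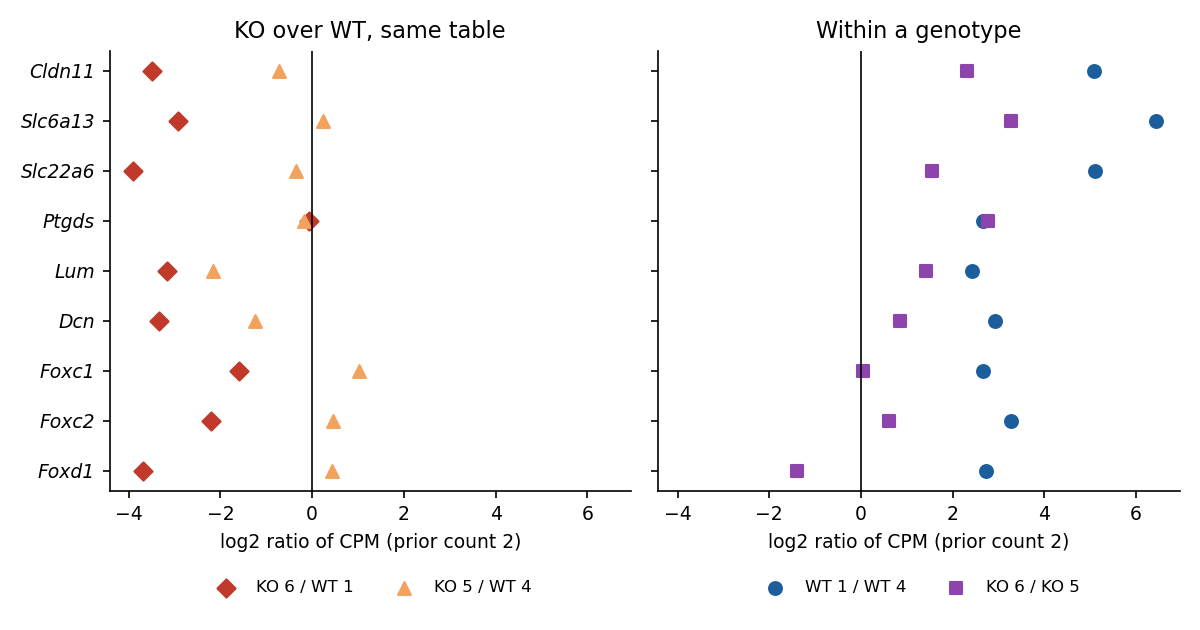
Log2 ratios of CPM (horizontal axis, prior count 2) for the 9 genes listed in both tables, KO over WT within each deposited table on the left and between libraries of 1 genotype on the right. The KO 6 to WT 1 ratios lie at or below -1.60 in all rows but Ptgds, and the WT 1 to WT 4 ratios all lie above 2.

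In the authors' deposited table A, 9 of the 10 genes were marked significant and lower in KO, all but Ptgds, against 3.59% of its genes. In the authors' deposited table B, 2 of 9 were marked lower (Lum and Dcn), against 1.60%, and 1 was marked higher (Foxc1, log2 fold change 1.08), against 0.715%. Each of those marks compares 1 library with 1 library.

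Other meningeal and fibroblast genes, taken as a list, showed the same lead of WT 1 in smaller measure. Their median log2 ratio of WT 1 to WT 4 was 1.21 over those tested, beside 2.80 for the tested meningeal genes above. Of a list of 40, among them collagens, fibronectin and growth factor genes, 37 were tested, 30 with a negative and 7 with a positive log2 fold change, and WT 1 was the highest library for 28 of the 37. The median was -0.66 with all libraries and 0.07 without WT 1. By edgeR 0 of the 37 passed with all libraries, against 0.0122% of 16371 genes called lower. With the table as a block 5 were called lower, against 0.165%. Igf2, an imprinted growth factor gene abundant in the meninges, was at 314 CPM in WT 1 but at 47.7 (WT 4), 25.8 (KO 5) and 61.6 CPM (KO 6) elsewhere. Fn1, the fibronectin gene, was at 187 CPM in WT 1 and 101 to 110 CPM in the others. The midkine gene Mdk (102 to 128 CPM) was not highest in WT 1.

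Family relatives of the 10 genes had medians nearer 0. Tested small leucine-rich proteoglycans outside the 10 had 4 negative and 3 positive values with a median log2 fold change of -0.13. Bgn, the biglycan gene, was highest in WT 1 (47.9 CPM against 12.8 to 20.7 CPM), as was Fmod, the fibromodulin gene (15.2 against 1.08 to 3.02 CPM). Podn, the podocan gene, and Prelp, the gene of a basement membrane proteoglycan, were lowest there, at 7.65 and 2.36 CPM. The family thus did not move as one across libraries. Medians were -0.11 for 5 Slc6 carriers (4 negative), -0.19 for 7 organic ion carriers (4 negative), -0.21 for 8 forkhead and Osr genes (6 negative), -0.17 for 6 prostaglandin genes (5 negative) and -0.38 for 6 claudins (4 negative), and with all 4 libraries edgeR called 0 genes in each of these lists and among the 7 proteoglycans. Without WT 1 the medians were 0.28 for the proteoglycans, 0.10 for the Slc6 carriers, 0.12 for the organic ion carriers, 0.08 for the forkhead and Osr genes, -0.01 for the prostaglandin genes and -0.15 for the claudins, so 4 of the 6 turned positive, and edgeR again called 0. Set against WT 1 alone, the median log2 ratios of KO 5 and KO 6 were 0.10 and 0.12 for the tested proteoglycans. For the tested claudins they were -0.55 and -0.29. These ratios rest on WT 1 as the only WT library. Cldn5, the claudin of brain endothelium, was at 49.5 CPM in WT 1 and 24.8 to 30.1 CPM in the others.

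Other cell types moved with the meningeal genes to differing extents. The ratio of summed CPM, WT 1 to WT 4, was 11.4 for the 10 genes, 2.25 for the 40 other meningeal genes, 2.49 for border macrophages and microglia (8 genes), 3.53 for choroid plexus (7), 2.25 for ganglionic eminence (9), 1.72 for endothelium (8), 1.51 for pericytes (7), 1.51 for the oligodendrocyte lineage (8), 1.06 for red cells (7), 0.863 for cortical neurons and progenitors (10) and 0.609 for skin and bone of the head (9). In the skin and bone list Krt14 and Krt5, with 288 and 225 counts in WT 4, were entered as 0 in WT 1. Table A does not list them. All 4 tested genes of that list were highest in WT 1. Their median log2 ratio of WT 1 to WT 4 was 1.06. For the 5 tested choroid plexus genes this median was 1.01, and for Ttr alone the log2 ratio was 4.11. For the 8 oligodendrocyte lineage genes it was 0.475, and for Pdgfra alone the log2 ratio was 1.56. Summed levels in WT and in KO were 135 to 232 and 134 to 138 CPM for endothelium, 137 to 207 and 124 to 160 CPM for pericytes, and 33.8 to 84.1 and 28.0 to 31.6 CPM for macrophages and microglia, with no gene of these lists at 0. For the ganglionic eminence they were 256 to 574 and 157 to 249 CPM, and for red cells 1009 to 1065 and 766 to 1468 CPM. Without WT 1 the median log2 fold change was 0.02 for endothelium, -0.01 for pericytes and 0.03 for macrophages and microglia, against -0.43, -0.33 and -1.02 with all libraries. WT 1 was the highest library for 6 of the 7 tested macrophage and microglia genes. The other, P2ry12, was lower in WT 1 (6.19 CPM) than in WT 4 (8.99 CPM). In WT 1 and WT 4, Mrc1 was at 20.5 and 2.00 CPM, Lyve1 at 11.4 and 0.587 and Cd163 at 3.49 and 0.176 CPM. Csf1r, at 22.4 and 14.0 CPM, and Cx3cr1, at 8.44 and 5.17 CPM, differed less. The summed ratio of that list thus joins genes that moved to unlike extents. The part of any of these cell types in the levels of the 10 genes was not tested.

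**Figure D4:**
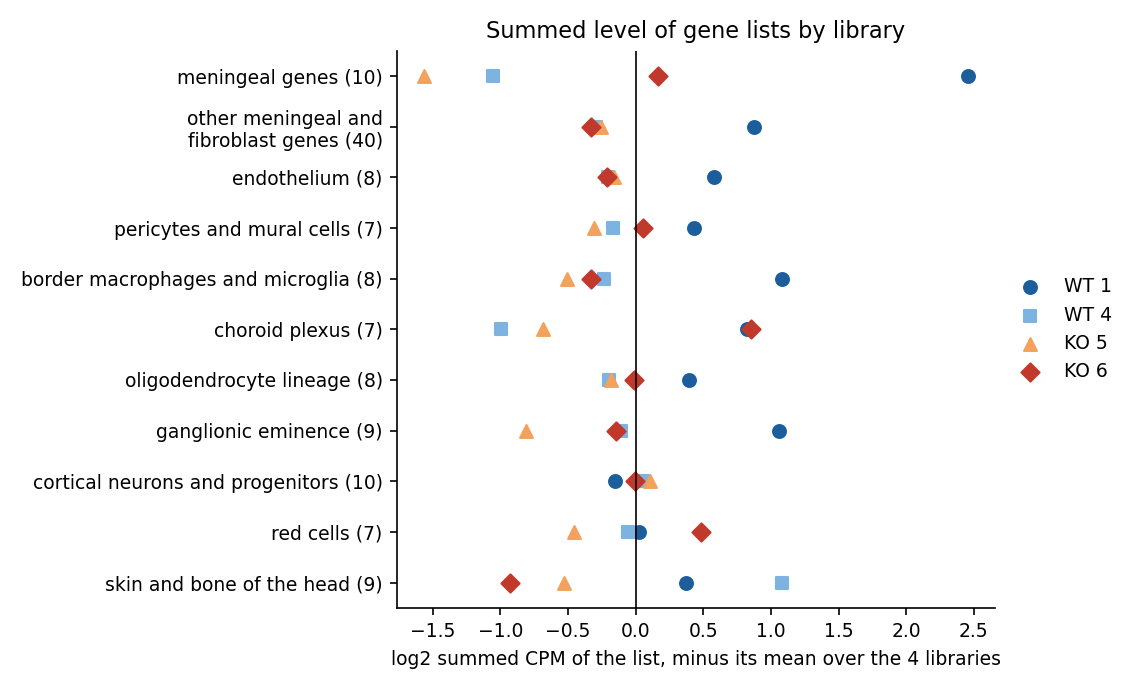
Summed CPM of the meningeal and cell type lists in each library on a log2 scale, relative to the mean of that list over the 4 libraries, with the number of genes in brackets. Of the meningeal and cell type lists drawn, the 10 meningeal genes spread the most, from 154 CPM in WT 1 to 9.53 CPM in KO 5, and cortical neuron genes the least.

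The genes whose pattern over the 4 libraries was most like the median of the 6 tested genes included fibroblast and border macrophage genes. Among 14985 tested genes with a mean of at least 1 CPM, the 10 at the smallest Euclidean distance of centred log2 CPM were Lyve1, Fmod, Ranbp3l, Mrc1, Ogn, Aebp1, Gjb6, Colec12, Col6a3 and Cd163, at 0.539 to 0.794, where the median gene was at 3.39. Lyve1, Mrc1 and Cd163 are receptor genes of border macrophages, Fmod and Ogn encode further leucine-rich proteoglycans, Col6a3 a collagen chain, and Gjb6 a connexin. Lyve1 had 203, 10, 5 and 18 counts in WT 1, WT 4, KO 5 and KO 6, and Ogn 263, 23, 20 and 47. The 6 genes themselves lay at 1.13 (Cldn11) to 2.15 (Slc6a13) from their own median. Over the 3 libraries other than WT 1, an alternative chosen after seeing the data, 1 of these 10 genes was among the nearest 10, and the 10 ranked from 7 to 327 of 14985. With 4 libraries this likeness is a description.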

How the data were processed

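RNA-seq of 4 libraries (2 WT, 2 Cd93 KO) was analysed from 2 deposited tables. Each holds whole counts per Ensembl gene made by the authors, per the file headers. Per the submitters' processing notes the tools were HTSeq 0.6.0, TopHat2 2.0.12 and Bowtie2 2.2.3, with the build mm9, and neither their roles nor a strand setting is given. Gene positions in the tables are those of GRCm38: 9 of the 10 genes have the start and end of GENCODE mouse release 21. Coordinates are 1-based, as in the tables. A second pair of columns holds CPM computed by the authors, with a count of 0 written as 0.5 read. Their deposited log2 fold changes and adjusted p-values compare 1 library with 1 library.

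Of 22025 and 21688 genes in tables A and B, 20385 in both were analysed. After filterByExpr, 16371 were tested with edgeR 4.0.16 in R 4.3.3 (TMM factors 0.994 to 1.012, quasi-likelihood test, two-sided, Benjamini-Hochberg over all tested genes). SE is the log2 fold change over the square root of F. DESeq2 1.42.0 and limma 3.58.1 (voom), other scaling, no filter, genes of either table, the table as a block and leaving out each library were alternatives. A permutation test of 2 against 2 cannot go below 0.333. Library ratios use depth scaled by TMM, with exact conditional binomial 95% intervals. They cover counting error only, because PCR copies cannot be told from separate molecules here. The floor was 3 counts, 0.169 to 0.185 CPM. Exon length is the union of GENCODE exons. Scripts were tested on simulated counts, and figures were drawn with matplotlib 3.10.9 in Python 3.11.15.

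The 10 genes, the lists and the alternatives were chosen with earlier results of these data known. All 10 genes are named. Of each other list genes among the 4 with the highest mean CPM are named, and Kl, Ptgdr and Ptgfr were added after their values were seen, and the nearest patterns are the 10 genes of smallest distance. Slc6a13 overlaps the miRNA gene Gm24855, Foxc2 the gene Gm20388 and Osr1 the lncRNA gene 1700022H16Rik in GENCODE. Neither table lists counts for these 3, and reads of overlapping genes cannot be told apart without the strand setting.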

Additional observations from a re-analysis of the deposited data

How the results depend on the processing

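The genotypes share no replicate number, and the pairing tried was that of the deposited tables (KO 6 with WT 1, KO 5 with WT 4), as a block. The number of meningeal genes called by edgeR was 0 with all 4 libraries, with other size factors, with no filter and with genes of either table. With the table as a block it was 3. Over all genes, 2 were called with all libraries, 8 by DESeq2, 29 with the table as a block and, leaving out WT 1, WT 4, KO 5 or KO 6, 44, 312, 5 and 8. The median log2 fold change of the meningeal genes was -1.85 by limma-voom and -3.74 to 1.01 when 1 library was left out, the reversal being without WT 1. Without WT 1 the sign also turned for Cldn11 (0.93), Slc6a13 (3.21), Foxc1 (1.09) and Ptgds (1.84), and without KO 5 for Ptgds (0.73). The cause was not tested. Leaving out 1 library, the lowest values were -5.23 for Cldn11, -5.75 for Slc6a13, -1.66 for Foxc1 and -2.10 for Ptgds. Lum and Dcn kept a negative value in all 10 alternatives, from -4.12 to -1.40 and from -3.74 to -0.79, with edgeR, DESeq2 or limma adjusted p values from 5.60e-08 and 7.25e-11 up to 1. Slc22a6, Foxc2 and Foxd1 had 2 to 9 counts in all libraries but WT 1, and of the differences among those libraries only that of Slc22a6 between KO 6 and KO 5 (ratio 4.86, 1.01 to 46.2) was detectable at this depth.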

Other observations

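Among genes listed for the skin and bone of the head, 2 keratin genes of basal epidermis were counted almost only in WT 4. Krt14 had 288 counts and Krt5 225 counts in WT 4, against 1 and 0 in KO 5. Table A, of WT 1 and KO 6, does not list either gene, and the lowest sum over its libraries was 2 counts. WT 4, the WT library with low meningeal genes, is thus the one with nearly all listed counts of these keratin genes. Prrx1, a gene of head mesenchyme, was highest in WT 1 at 9.57 CPM, as the meningeal genes were, but lowest in KO 6 at 1.54 CPM, with 4.05 CPM in WT 4 and 3.94 CPM in KO 5.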
